A study of Mus musculus with 10 samples.

Results

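The A:T positions of a fragment of the mouse immunoglobulin switch mu region (Smu) were described by their distance from the hotspots of activation-induced deaminase (AID). A position was included if its reference base was A or T, and positions 225, 376, 454, 455 and 486, where the libraries differ in their reference base, and position 560, with few reads, were left out. This gave 311 A:T positions, 183 with A and 128 with T on the reference strand, of 554 positions used and 560 in the deposited tables. A hotspot was the cytosine of a WRC motif on either strand, where W is A or T and R is A or G, and there were 74 of these, 33 read as C and 41 as G on the reference strand. Each A:T position was read on the strand that carries the A. It was classed as WA when the base just 5' of that A was A or T (168 positions) and as SA when it was C or G (142 positions), and position 1 had no such base. The nearest WRC cytosine lay a median of 3 bp away and at most 24 bp away. It lay at 1 bp for 77 positions, at 2 bp for 64, at 3 to 5 bp for 99, at 6 to 10 bp for 48 and over 10 bp away for 23. The 141 positions at most 2 bp away are called near and the 71 positions at least 6 bp away are called far.

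Smu is an intronic, repetitive stretch upstream of Ighm, the gene of the mu heavy chain constant region, at which class switching begins. AID deaminates cytosine to uracil there, and uracil-DNA glycosylase (UNG) excises the uracil. In germinal centre B cells, resynthesis of the strand by DNA polymerase eta also leaves substitutions at A:T pairs around the deaminated cytosine, with a preference for WA. A:T substitutions near AID hotspots are therefore a usual readout of mismatch repair acting on AID lesions.

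Spleen B cells of UNG+/+, UNG-/- and AID-/- mice were labelled with 5 µM CFSE, a dye that is diluted at each division, and kept for 4 days in medium that held LPS at 25 µg/ml, IL4 at 10 ng/ml and BAFF at 20 ng/ml. Cells with at least 5 divisions were sorted, and Smu was amplified from their genomic DNA. The genotypes had 4 (UNG+/+), 4 (UNG-/-) and 2 (AID-/-) libraries, and AID-/- cells, which cannot deaminate, served as the negative control. All groups shared the stimulus and the sort, the UNG genotypes carried AID, and no strain or age was given in the labels. Nothing in the labels ties each library to its own animal, so a p-value here reflects a spread between libraries that may be technical. Reads at the A:T positions summed to 66768962 to 147991608 per library after the base quality filter, with a median of 161155 to 435363 reads per A:T position. Substituted reads at A:T positions numbered 6969 to 15696 per library, a median of 19 to 45 per position. The libraries were PCR products without molecular identifiers, so limits from counts of 0 cover counting error only. UNG libraries numbered 1 and 2 and AID-/- replicate 1 had 97.9 to 98.2% of bases at these positions passing the quality filter, against 98.7 to 99.0% in UNG libraries numbered 3 and 4 and AID-/- replicate 2, and values within these quality pairs are given where they bear on a result. Replicates 1, 2 and 4 of UNG-/- held a second base at the polymorphic positions, and AID-/- libraries had another reference base at each, so genotypes were not matched for haplotype.

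RefSeq annotation places Ighm on chromosome 12. The genome build and the coordinates of the fragment were not given in the sources used here. Position numbers are those of the deposited tables, and T492, for example, is the T of the reference strand at number 492. The first 2 sequences below show how unevenly hotspots are spaced, with every WRC cytosine in capitals (as G where the C is on the other strand). The stretch from 216 to 248 is the longest between neighbouring hotspots and holds 14 A:T positions, and the 40 bases from 423 to 462 are the densest, with 10 WRC cytosines and 18 A:T positions. The other sequences show 25 bases around A:T positions that the single-position results turn on, with the position and the nearest WRC cytosine in capitals (both cytosines for A408, since they are equally far). All are the reference strand of the UNG tables, 5' to 3'.
Longest stretch between hotspots: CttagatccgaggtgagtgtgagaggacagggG
Densest 40 bases: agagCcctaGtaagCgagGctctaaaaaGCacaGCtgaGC
T492: tctgagtgCttcTaaaatgcgctaa
T406: tgctgagCaaaaTtaagggaacaag
A408: ctgagCaaaattAagggaaCaaggt
A178: gccagtaaatgtACttcctggttgt
T463: gcacagctgagCTgagatgggtggg
A278: agaaggaaggccAcaGctgtacaga

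A:T positions were substituted at nearly the same frequency in cells with and without AID. The level of a library was the mean over the 311 positions of substituted reads over quality-filtered reads, given per 10000 reads. UNG+/+ replicates 1 to 4 gave 1.05, 1.14, 1.11 and 1.09, and UNG-/- replicates 1 to 4 gave 1.10, 1.14, 1.21 and 1.20. AID-/- replicates 1 and 2 gave 1.11 and 1.03, the first inside the range of the UNG+/+ libraries and the other just below it. The UNG-/- mean of 1.16 ± 0.0513 (SD, n = 4) stood 0.0630 ± 0.0318 (SE) above the UNG+/+ mean of 1.10 ± 0.0376 (SD, n = 4) (exact permutation test, two-sided here and throughout, p = 0.143). Libraries numbered 1 and 2 alone gave 0.0239, and those numbered 3 and 4 gave 0.102. UNG+/+ cells stood 0.0273 ± 0.0418 (SE) above the AID-/- mean of 1.07 (exact permutation p = 0.533) and UNG-/- cells 0.0902 ± 0.0453 (SE) above it (exact permutation p = 0.2), and 0.0667 is the smallest p that 4 libraries against 2 can give. The UNG-/- difference from AID-/- was 0.1275 without AID-/- replicate 1 and 0.0530 without AID-/- replicate 2. Within quality pairs the UNG+/+ difference was -0.0129 and 0.0674, and the UNG-/- difference 0.0110 and 0.170, lower-quality libraries first.

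The frequency differed far more between positions than between genotypes, and the order of positions was much the same in all 3. Across the 311 positions the UNG+/+ mean correlated with the AID-/- mean at Pearson r = 0.921 (Spearman rho = 0.858), the UNG-/- mean with the AID-/- mean at 0.913 (0.868), and the AID-/- libraries with each other at 0.798 (0.801). These are descriptions over positions that share an amplicon, a base composition and a sequencing process, and positions are not replicates. No substituted read was seen in any library at A1, T2 and A551. Over all libraries together a count of 0 allows up to 0.212, 0.109 and 0.368 per 10000 there, for counting error alone.

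**Figure D1:**
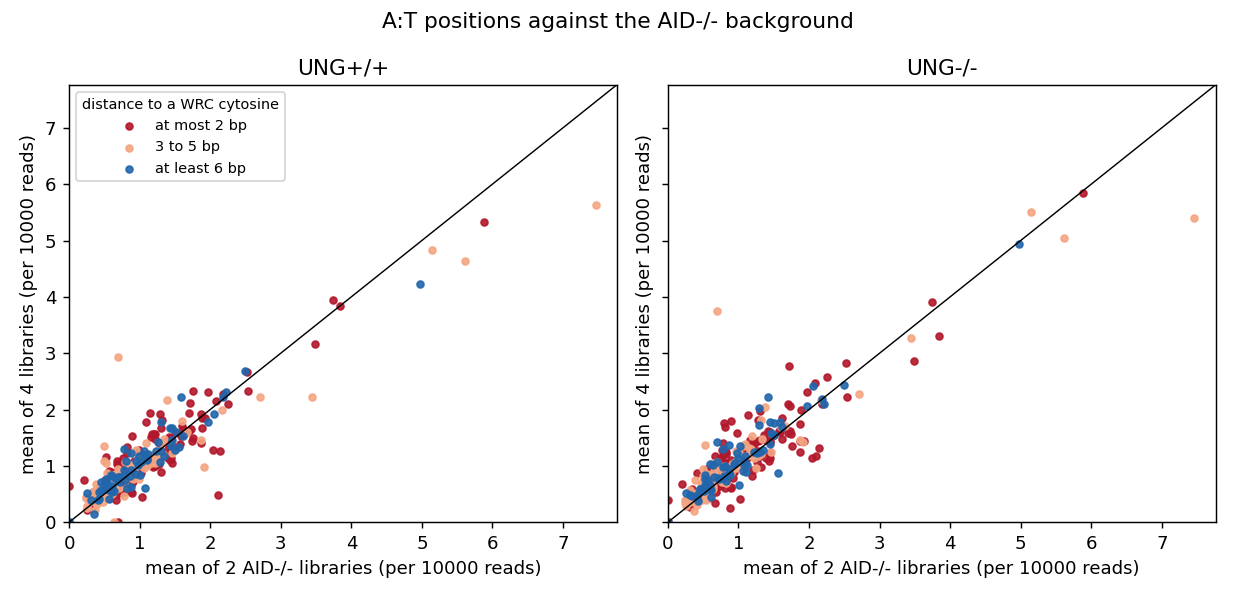
Each point is 1 of the 311 A:T positions, with its mean frequency in the 2 AID-/- libraries on the x axis and its mean in the 4 UNG+/+ (left) or UNG-/- (right) libraries on the y axis, per 10000 reads, coloured by distance to the nearest WRC cytosine; the line marks equal values. Near and far positions lie along the line alike, and T492, at 0.693 in AID-/- against 2.94 and 3.74, stands above it in both panels.

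A:T positions 1 bp from a hotspot had a higher mean frequency than those farther away, in AID-/- cells too. At 1 bp from a WRC cytosine the frequency was 1.33 ± 0.0758 for UNG+/+, 1.36 ± 0.0844 for UNG-/- (SD, n = 4 each) and 1.30 for AID-/- cells. At 2 bp it was 1.03, 1.08 and 0.998, at 3 to 5 bp 1.00, 1.08 and 0.988, at 6 to 10 bp 1.09, 1.15 and 1.05, and over 10 bp 0.976, 1.07 and 0.927, in the same order of genotypes. The step between 1 bp and the other distances was thus present without AID.

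Near minus far positions, with near pooling 1 and 2 bp, was computed within each library. It was 0.0508, 0.160, 0.162 and 0.175 in UNG+/+ replicates 1 to 4, 0.0618, 0.0868, 0.104 and 0.199 in UNG-/- replicates 1 to 4, and 0.139 and 0.161 in the AID-/- libraries. Every library was higher near than far, and the values of the AID-/- libraries lay within the range of both UNG genotypes. The contrast in UNG-/- cells differed from that in UNG+/+ cells by -0.0243 ± 0.0418 (SE, exact permutation p = 0.571). Against AID-/- cells it differed by -0.0129 ± 0.0309 in UNG+/+ (exact permutation p = 0.933) and by -0.0372 ± 0.0319 in UNG-/- cells (exact permutation p = 0.467). Lower-quality libraries first, these differences were -0.0311 and -0.0174, -0.0339 and 0.00808, and -0.0650 and -0.00931 within quality pairs. None of the 3 was larger than the spread between libraries. With distance to WRCY motifs, where Y is C or T, the difference between UNG-/- and UNG+/+ turned to 0.0131 (exact permutation p = 0.829).

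Hotspot cytosines and the A:T pairs beside them differed widely in how far they stood above the control. The 74 WRC cytosines averaged 30.0 per 10000 in UNG+/+ and 76.4 in UNG-/- against 5.11 in AID-/- cells, an excess of 24.9 and 71.3. The 141 near A:T positions had an excess over AID-/- of 0.0304 in UNG+/+ and 0.0750 in UNG-/- cells, which is 0.122% and 0.105% of the excess at the cytosines. The far positions had an excess of 0.0434 and 0.112.

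A:T positions whose nearest WRC cytosine was heavily substituted had no larger excess than the rest. The positions were divided at the median level of their nearest WRC cytosine, at any distance, in UNG-/- cells. The 153 above it held 1.20 for UNG+/+, 1.28 for UNG-/- and 1.21 for AID-/- cells, an excess of -0.0127 and 0.0760. The 158 at or below it held 1.01, 1.04 and 0.940, an excess of 0.0659 and 0.104. The 96 A:T positions that form the W or R of a WRC trinucleotide, whose mean was 1.21 for UNG+/+, 1.27 for UNG-/- and 1.18 for AID-/- cells, had an excess of 0.0257 and 0.0825. The 215 outside had 0.0280 and 0.0937. In the longest stretch between hotspots, printed above, the 14 A:T positions averaged 1.51 ± 0.110 for UNG+/+ and 1.59 ± 0.0423 for UNG-/- libraries (SD, n = 4 each), with 1.58 and 1.41 in the AID-/- libraries. In the densest 40 bases the 18 positions averaged 0.931 ± 0.0546 and 0.996 ± 0.0961, with 0.886 and 0.788 in AID-/-. The stretch without hotspots was the higher of the pair in every genotype.

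WA positions were substituted less often than SA positions in every library, with or without AID, and the excess over AID-/- ran the other way. WA positions averaged 0.921 ± 0.0599 for UNG+/+, 1.00 ± 0.0318 for UNG-/- (SD, n = 4 each) and 0.850 for AID-/- cells, and SA positions 1.32 ± 0.0552, 1.36 ± 0.0872 and 1.34. The excess over AID-/- was 0.0714 and 0.150 at WA positions and -0.0248 and 0.0196 at SA positions, in UNG+/+ and UNG-/- cells. WA minus SA was -0.359, -0.294, -0.493 and -0.440 in UNG+/+ replicates 1 to 4, -0.309, -0.295, -0.386 and -0.456 in UNG-/- replicates 1 to 4, and -0.493 and -0.492 in AID-/- replicates 1 and 2. All UNG-/- libraries and 3 of the 4 UNG+/+ libraries lay above both AID-/- libraries, and UNG+/+ replicate 3 lay with them. WA minus SA was 0.131 ± 0.0373 (SE) higher in UNG-/- than in AID-/- cells (exact permutation p = 0.133), 0.0962 ± 0.0439 higher in UNG+/+ than in AID-/- cells (exact permutation p = 0.2) and 0.0347 ± 0.0576 higher in UNG-/- than in UNG+/+ cells (exact permutation p = 0.6). The 2 AID-/- libraries nearly coincided (SD 0.000268), so the SE of the differences from AID-/- hold almost no AID-/- spread and may be too small. The difference between UNG-/- and UNG+/+ was 0.0026 without UNG+/+ replicate 3 and 0.0689 without UNG+/+ replicate 2. Within quality pairs the difference from AID-/- was 0.191 and 0.0713 for UNG-/- and 0.166 and 0.0259 for UNG+/+ cells, lower-quality libraries first, so it was larger in the lower-quality libraries for both genotypes. Between UNG-/- and UNG+/+ it was 0.0240 within numbers 1 and 2 and 0.0454 within numbers 3 and 4.

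Within WA, the excess over AID-/- was larger where T came before the A than where A did. TA positions (70) held 1.09, 1.30, 1.09 and 1.12 in UNG+/+ replicates 1 to 4, 1.21, 1.31, 1.34 and 1.25 in UNG-/- replicates 1 to 4, and 1.07 and 1.01 in the AID-/- libraries. All 8 libraries with AID lay above both without it, while the UNG genotypes overlapped. Without T492, the position with the largest excess, UNG+/+ replicate 1 at 1.04 lay below AID-/- replicate 1 at 1.07. The UNG-/- libraries still lay above both AID-/- libraries. AA positions (98) averaged 0.757 ± 0.0300, 0.801 ± 0.0156 (SD, n = 4 each) and 0.713, and 3 of the 4 UNG+/+ libraries, at 0.739 to 0.745, lay below the higher AID-/- library at 0.757. CA positions (71) averaged 1.48, 1.51 and 1.49 and GA positions (71) 1.16, 1.22 and 1.20, with the AID-/- libraries inside the range of both UNG genotypes for CA.

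**Figure D2:**
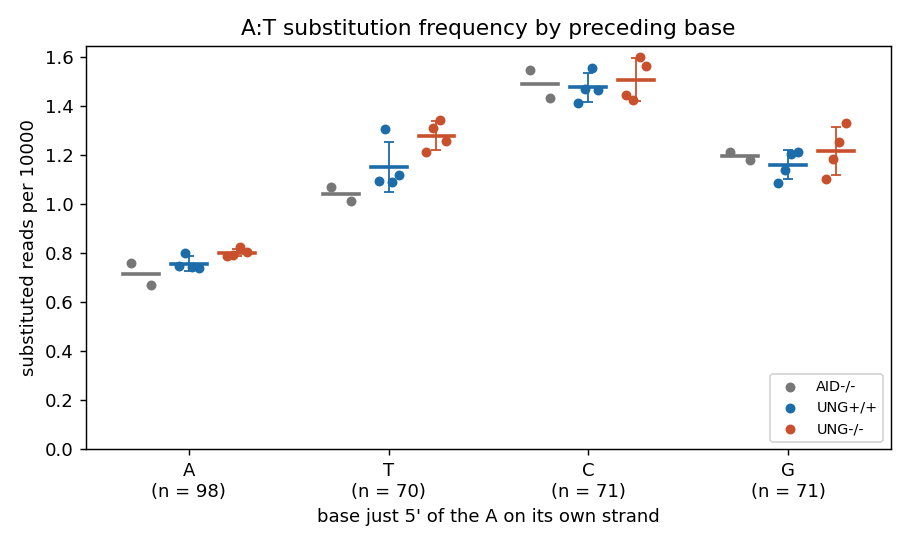
Substituted reads per 10000 at A:T positions grouped by the base just 5' of the A on its own strand (x axis, with the number of positions); points are libraries, thick bars group means and error bars SD over the 4 UNG libraries (AID-/- has 2 libraries and no error bar). CA is highest in all 3 genotypes, and at TA the 4 UNG-/- libraries, from 1.21 to 1.34, lie above both AID-/- libraries at 1.07 and 1.01.

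The kind of substitution at TA positions that stood apart from AID-/- in both UNG genotypes was A:T to T:A. UNG+/+ replicates 1 to 4 gave 0.230, 0.268, 0.227 and 0.249 per 10000, UNG-/- replicates 1 to 4 gave 0.236, 0.280, 0.319 and 0.290, and AID-/- replicates 1 and 2 gave 0.173 and 0.168. Every library with AID was above both AID-/- libraries, and the UNG genotypes overlapped. Without T492, the position with the largest excess, the means were 0.219 ± 0.0248 for UNG+/+, 0.245 ± 0.0334 for UNG-/- (SD, n = 4 each) and 0.172 for AID-/- cells, still with no overlap with AID-/-. The strands differed. TA positions with T on the reference strand averaged 0.252, 0.261 and 0.175 without T492, and those with A averaged 0.186, 0.231 and 0.168. At those with A the lowest UNG+/+ library, at 0.1749, only just cleared the higher AID-/- library at 0.1744. A:T to C:G at TA positions averaged 0.208, 0.299 and 0.189, with overlap between all groups. These class values by type are descriptions and carry no test.

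Near minus far at WA positions did not differ from the control by more than the spread between libraries either. WA positions at most 2 bp away (81) averaged 1.10 ± 0.0830 for UNG+/+, 1.17 ± 0.0447 for UNG-/- (SD, n = 4 each) and 1.05 for AID-/- cells. WA positions at least 6 bp away (34) averaged 0.809 ± 0.0192, 0.945 ± 0.0737 and 0.778. The UNG-/- excess was 0.116 near and 0.168 far. Near minus far among WA positions differed by -0.0737 ± 0.0618 (SE) between UNG-/- and UNG+/+ (exact permutation p = 0.286), by 0.0222 ± 0.0431 between UNG+/+ and AID-/- (exact permutation p = 0.8) and by -0.0515 ± 0.0483 between UNG-/- and AID-/- cells (exact permutation p = 0.467). The same contrast among SA positions (60 near, 36 far) differed by 0.0132 ± 0.0657 (exact permutation p = 0.886), -0.0566 ± 0.0572 (exact permutation p = 0.6) and -0.0435 ± 0.0326 (exact permutation p = 0.467). Neither WA nor SA positions thus showed a proximity difference between genotypes larger than the spread between libraries.

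**Figure D3:**
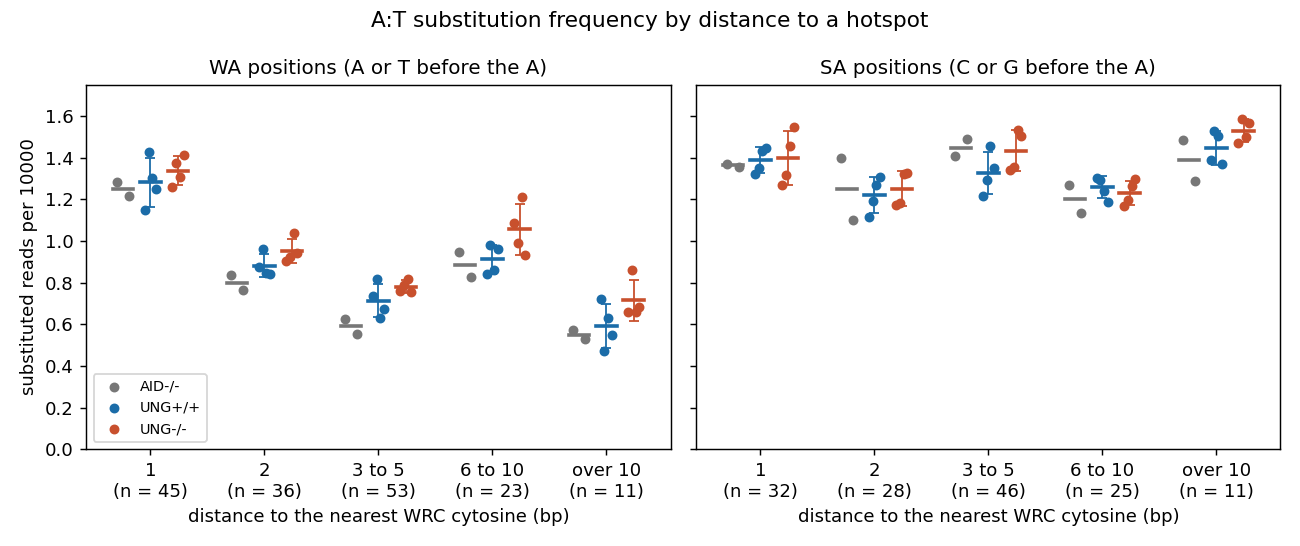
Substituted reads per 10000 by distance in bp to the nearest WRC cytosine for WA positions (left) and SA positions (right), with the number of positions in each bin; points are libraries, thick bars group means and error bars SD over the 4 UNG libraries. WA positions are highest at 1 bp in all 3 genotypes (1.28 in UNG+/+, 1.34 in UNG-/-, 1.25 in AID-/-), and SA positions show no such step.

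At 3 to 5 bp, WA positions (53) gave 0.738, 0.815, 0.629 and 0.675 in UNG+/+ replicates 1 to 4 and 0.762, 0.791, 0.818 and 0.755 in UNG-/- replicates 1 to 4, against 0.625 and 0.555 in AID-/-. Every library with AID lay above both AID-/- libraries in this bin, which holds T492. The same held at 2 bp (36 WA positions), with 0.844 to 0.960 in UNG+/+ and 0.905 to 1.04 in UNG-/- against 0.836 and 0.765 in AID-/-. In the WA bins at 1 bp, 6 to 10 bp and over 10 bp, UNG+/+ and AID-/- libraries overlapped. The far WA positions of UNG-/- cells, at 0.947, 0.949, 1.03 and 0.852, all lay above those of UNG+/+ cells, at 0.805, 0.818, 0.784 and 0.829, and above those of AID-/- cells, at 0.825 and 0.730. The difference at far positions was not tested on its own.

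On the reference strand T was substituted more often than A in every library, and over all A:T positions the gap did not follow genotype. A positions averaged 0.989 ± 0.0572 for UNG+/+, 1.07 ± 0.0630 for UNG-/- (SD, n = 4 each) and 0.982 for AID-/- cells, and T positions 1.26 ± 0.0396, 1.30 ± 0.0501 and 1.20. A minus T differed by 0.0358 ± 0.0443 (SE) between UNG-/- and UNG+/+ (exact permutation p = 0.457), by -0.0511 ± 0.0355 between UNG+/+ and AID-/- (exact permutation p = 0.533) and by -0.0153 ± 0.0288 between UNG-/- and AID-/- cells (exact permutation p = 0.667). Among WA positions, T averaged 1.08, 1.12 and 0.935 in UNG+/+, UNG-/- and AID-/- cells. Every library with AID lay above both AID-/- libraries in this class, which holds T492. WA positions with A averaged 0.811, 0.918 and 0.791, and only the UNG-/- libraries all lay above both AID-/- libraries. SA positions averaged 1.47, 1.51 and 1.51 with T and 1.21, 1.26 and 1.22 with A, with overlap between all groups. These values were not tested on their own.

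None of the 6 substitution types at A:T positions passed an adjusted p of 0.05 in any of the 3 comparisons. In the comparisons with AID-/- none could pass, since 4 libraries against 2 give an exact permutation p of at least 0.0667. A to C came closest between the UNG genotypes. It was 0.181, 0.228, 0.175 and 0.172 per 10000 reads at A positions in UNG+/+ replicates 1 to 4 and 0.237, 0.245, 0.236 and 0.233 in UNG-/- replicates 1 to 4, with 0.203 and 0.160 in AID-/-. The 4 UNG-/- libraries all lay above the 4 UNG+/+ libraries, by 0.0484 on average, and the exact permutation p of 0.0286, the smallest 4 against 4 can give, became 0.171 after Benjamini-Hochberg adjustment over the 6 types. T to A was 0.252, 0.293, 0.276 and 0.275 in UNG+/+ replicates 1 to 4, 0.249, 0.250, 0.320 and 0.311 in UNG-/- replicates 1 to 4, and 0.206 and 0.215 in AID-/- libraries. Every library with AID was above both without it, with an adjusted exact permutation p of 0.4 for each UNG genotype.

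T to G, T to C and A to T separated by base quality across genotypes. T to G was 0.330 to 0.404 in the 5 lower-quality libraries and 0.190 to 0.266 in the 5 higher-quality ones, whichever their genotype. T to C went the other way, with 0.620 to 0.696 and 0.712 to 0.788, and A to T did so by a narrow margin, with 0.1926 to 0.2408 and 0.2412 to 0.3115. A to G, the transition at A, overlapped between the quality classes and averaged 0.563 for UNG+/+, 0.565 for UNG-/- and 0.560 for AID-/- cells.

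**Figure D4:**
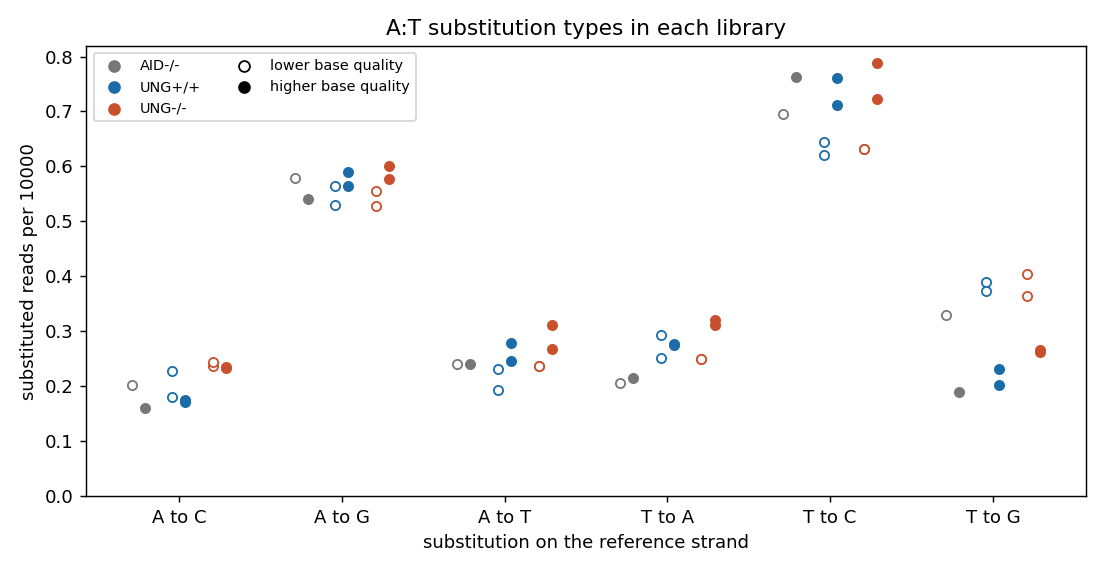
Substituted reads per 10000 for the 6 substitutions at A:T positions of the reference strand (x axis); each point is a library, open for the lower and filled for the higher share of bases passing the quality filter. T to G, T to C and, narrowly, A to T separate by base quality, A to C is higher in all 4 UNG-/- than in all 4 UNG+/+ libraries, and T to A is lowest in the 2 AID-/- libraries at 0.206 and 0.215.

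Few single A:T positions differed between genotypes. Substituted reads were tested per position with edgeR's quasi-likelihood test over all 515 positions with enough counts, 278 of them A:T, and p-values were adjusted over all 515 by the Benjamini-Hochberg method. Between UNG-/- and UNG+/+ cells 4 A:T positions passed an adjusted p of 0.05, all higher in UNG-/-, where 24.5% of all positions passed as higher and 0% as lower. Between UNG+/+ and AID-/- cells 5 passed, 3 higher and 2 lower in UNG+/+, where 18.4% of all positions passed, 18.1% as higher and 0.388% as lower. Between UNG-/- and AID-/- cells 9 passed, 8 higher and 1 lower in UNG-/-, where 27.2% of all positions passed, 27% as higher and 0.194% as lower. The shares of A:T positions, 1.44%, 1.80% and 3.24%, were far below these, and every position called lower against AID-/- cells was an A:T position. Libraries of the 2 genotypes did not overlap at 12, 46 and 48 A:T positions, or 4.32%, 16.5% and 17.3% of those tested, beside 24.9%, 30.9% and 41.7% of all positions. The median log2 fold change of A:T positions was 0.06, 0.05 and 0.14, beside 0.19, 0.17 and 0.27 over all positions tested.

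The many calls at C:G positions ease the adjustment for A:T positions. Adjusted over the 278 A:T positions alone in a fit of their own, 0, 2 and 1 positions passed, with 18, 23 and 33 at an unadjusted p under 0.05. DESeq2 called 1, 2 and 4, and limma 4, 3 and 9. With the replicate number as a block 7, 4 and 11 passed. By distance, 2 of 125 near, 0 of 89 at 3 to 5 bp and 2 of 64 far positions passed between UNG-/- and UNG+/+ cells, where 4 of the 89 had an unadjusted p under 0.05. Between UNG+/+ and AID-/- cells 2 of 125, 3 of 89 and 0 of 64 passed, the near calls both falls and the 3 at 3 to 5 bp all rises. Between UNG-/- and AID-/- cells 5 of 125, 2 of 89 and 2 of 64 passed. In the comparison with no call at far positions, 2 of them had an unadjusted p under 0.05. WA positions gave 4, 3 and 6 calls of 144 and SA positions 0, 2 and 3 of 134, with 4 SA positions at an unadjusted p under 0.05 between UNG-/- and UNG+/+ cells.

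T492, a TA position 4 bp from C488, a WRC cytosine on the UNG reference, had the largest excess over AID-/- in both UNG genotypes. It was substituted at 4.53, 2.83, 1.98 and 2.42 per 10000 in UNG+/+ replicates 1 to 4, at 3.36, 4.61, 3.75 and 3.24 in UNG-/- replicates 1 to 4, and at 0.688 and 0.697 in the AID-/- libraries, from 48590 to 177874 reads a library. All 8 libraries with AID were well above both without it, and the UNG genotypes overlapped. The log2 fold change against AID-/- was 1.95 ± 0.35 (SE) in UNG+/+ (edgeR adjusted p = 9.33e-05) and 2.40 ± 0.34 in UNG-/- cells (edgeR adjusted p = 1.77e-06). With A:T positions alone the adjusted p was 0.00557 and 0.000208. The position passed under all 17 alternatives in both comparisons, with a log2 fold change of 1.68 to 2.09 and of 1.92 to 2.46.

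The substitution at T492 was mainly T to A, at a T that a run of A follows in the sequence above. T to A was counted 15, 20, 17 and 31 times in UNG+/+ replicates 1 to 4, 19, 25, 51 and 24 times in UNG-/- replicates 1 to 4 and 1 time in each AID-/- library, and its mean was 1.96, 2.77 and 0.0747 per 10000. T to C averaged 0.881, 0.705 and 0.512. T492 lies 6 bp from polymorphic position 486, where AID-/- libraries have another reference base, so AID genotype and haplotype cannot be told apart at this position. Position 486 is also the W of the C488 motif. It is T on the UNG reference and C in the AID-/- libraries, where C488 is therefore not a WRC cytosine. UNG-/- replicate 3, which held no second base at the polymorphic positions, gave 3.75.

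T406, an AA position 5 bp from C401, was the other position that passed under all 17 alternatives against AID-/- in UNG+/+ cells. It gave 1.55, 1.42, 1.24 and 1.21 per 10000 in UNG+/+ replicates 1 to 4, 0.545, 1.09, 1.22 and 0.922 in UNG-/- replicates 1 to 4, and 0.556 and 0.431 in AID-/- libraries. UNG+/+ libraries lay above both AID-/- libraries, and UNG-/- replicate 1 lay between them. The log2 fold change was 1.45 ± 0.31 (SE) in UNG+/+ (edgeR adjusted p = 0.000753) and 0.99 ± 0.33 in UNG-/- cells (edgeR adjusted p = 0.0228, or 0.292 with A:T positions alone). T to A averaged 0.484 for UNG+/+, 0.251 for UNG-/- and 0.0154 for AID-/- cells, and T to G 0.490, 0.281 and 0.0795. The nearest polymorphic position was 30 bp away.

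A408, a TA position 7 bp from the cytosines on either side, had the largest rise from UNG+/+ to UNG-/- cells among the A:T positions that passed. It gave 0.870, 1.27, 0.891 and 1.21 in UNG+/+ replicates 1 to 4, 2.07, 1.47, 2.85 and 1.73 in UNG-/- replicates 1 to 4, and 1.38 and 1.19 in AID-/- libraries. The UNG-/- libraries lay above all others, and the AID-/- libraries lay at the upper end of the UNG+/+ range or just above it. The log2 fold change was 0.95 ± 0.22 (SE, edgeR adjusted p = 0.00148, or 0.0802 with A:T positions alone). Against AID-/- cells A408 also passed as higher in UNG-/-, with a log2 fold change of 0.72 ± 0.26 (SE, edgeR adjusted p = 0.0451). A to C carried most of it, with 0.143, 0.797 and 0.118 per 10000 in UNG+/+, UNG-/- and AID-/- cells. UNG-/- replicate 3 held 57 reads of this type, and UNG-/- replicates 1, 2 and 4 held 13, 5 and 10.

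A28, a TA position 2 bp from C26, rose likewise from 0.644 ± 0.115 for UNG+/+ to 1.04 ± 0.0381 for UNG-/- libraries (SD, n = 4 each), with 0.887 and 0.696 in AID-/-. Its log2 fold change was 0.75 ± 0.24 (SE, edgeR adjusted p = 0.0215, or 0.453 with A:T positions alone). The remaining calls between the UNG genotypes, A106 and A435, had overlapping libraries and were named after their values were seen.

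Against AID-/- cells, further rises in UNG-/- cells were at T149, T261, A453 and T190, each within 2 bp of a WRC cytosine. T149 averaged 0.877 ± 0.203 in UNG-/- and 0.599 ± 0.0908 in UNG+/+ (SD, n = 4 each) against 0.456 and 0.381 in AID-/- libraries, a log2 fold change of 1.07 ± 0.26 (SE, edgeR adjusted p = 0.00205). T261 averaged 1.69, 1.24 and 0.814 in UNG-/-, UNG+/+ and AID-/- cells, A453 1.79, 1.54 and 0.892, and T190 0.944, 0.916 and 0.560, with edgeR adjusted p of 0.0066, 0.0149 and 0.0377 for UNG-/- against AID-/- cells. A453 lies 1 bp from polymorphic position 454, where haplotype and AID genotype cannot be told apart. None of these 4 passed with A:T positions alone (edgeR adjusted p of 0.0644 to 0.319). A50 (UNG-/- against AID-/-, named after its value was seen) and A110 (UNG+/+ against AID-/-, log2 fold change 0.88 ± 0.29, edgeR adjusted p = 0.0303) also passed as higher. Neither passed with A:T positions alone (edgeR adjusted p = 0.319 and 0.423).

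Falls were seen at T463 and T164, both 1 bp from a WRC cytosine. T463 gave 1.60, 1.16, 1.14 and 1.23 in UNG+/+ replicates 1 to 4, 0.921, 1.32, 1.13 and 1.21 in UNG-/- replicates 1 to 4, and 2.06 and 2.02 in AID-/- libraries. Both AID-/- libraries lay above all 8 others. The log2 fold change was -0.71 ± 0.24 (SE, edgeR adjusted p = 0.0384) in UNG+/+ and -0.83 ± 0.25 in UNG-/- cells (edgeR adjusted p = 0.0101), and neither passed with A:T positions alone. T to C made up the difference, at 0.684, 0.763 and 1.48 in UNG+/+, UNG-/- and AID-/- cells. T463 is 8 bp from polymorphic position 455. T164 averaged 0.514 ± 0.134 in UNG+/+ (SD, n = 4) against 0.895 and 0.891 in AID-/- libraries (log2 fold change -0.76 ± 0.27, edgeR adjusted p = 0.0478, or 0.426 with A:T positions alone). This fall passed under 5 of 17 alternatives, and not with DESeq2, limma or the replicate block.

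Some positions with a high excess in the mean did not pass the test. A178, a TA position beside C179, gave 1.91, 3.07, 1.77 and 1.74 in UNG+/+ replicates 1 to 4, 2.64, 2.93, 3.26 and 2.29 in UNG-/- replicates 1 to 4 and 2.07 and 1.36 in AID-/- libraries. The UNG-/- libraries lay above both AID-/- libraries, and UNG+/+ replicate 2 lay among the UNG-/- libraries (log2 fold change 0.71 ± 0.29 for UNG-/- against AID-/-, edgeR adjusted p = 0.0722). A to T at this position averaged 0.578 for UNG+/+, 1.35 for UNG-/- and 0.204 for AID-/- cells. A202, T445 and T507, among the 5 highest by excess in UNG+/+ cells, and T516 in UNG-/- cells, likewise did not pass, with edgeR adjusted p between 0.059 and 0.71 against AID-/- cells. T516 had no substituted read in UNG+/+ replicate 1, which allows up to 1.28 per 10000.

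The A:T positions with the highest frequencies were high without AID. T346, T255, A278, T330 and T229 led in AID-/- cells with means of 7.46, 5.88, 5.62, 5.14 and 4.97 per 10000, and held 5.63, 5.33, 4.64, 4.84 and 4.23 in UNG+/+ and 5.41, 5.85, 5.04, 5.51 and 4.94 in UNG-/- cells. T229 lies 13 bp from a WRC cytosine and T255 lies 1 bp from one. A278 followed base quality, with 2.69, 3.66, 2.44, 3.41 and 4.13 in the 5 lower-quality libraries and 6.77, 5.41, 7.32, 7.01 and 7.10 in the 5 higher-quality ones. T346 did so too, with 4.00, 3.13, 3.55, 4.42 and 4.68 against 8.63, 6.76, 4.79, 8.87 and 10.2. T229 went the other way, with 4.45 to 5.79 in the lower-quality and 3.69 to 4.29 in the higher-quality libraries. Means of these positions thus pool unlike libraries. None of the 5 passed in any comparison by edgeR, where the smallest adjusted p was 0.455, and 0 had an unadjusted p under 0.05. DESeq2 and limma called none of them, and TMM scaling of the substituted reads called T229 and T255 lower in UNG-/- than in AID-/- cells.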

How the data were processed

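Smu amplicons of the 10 libraries were compared position by position. SAMtools 0.1.11, Novoalign 2.07.04 and CASAVA 1.7 are listed, without roles, per the submitters' processing notes. Per the file headers, the authors kept bases with a Phred score above 20 and deposited, for each position, the filtered reads and the count of reads with each substitution. The deposited fraction is, per the file headers, substituted over filtered reads. It was recomputed from the counts and is printed per 10000 reads.

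The positions, classes and tests were chosen with earlier results of these data known. Class values weigh positions alike and were compared by exact permutation (70 assignments for 4 against 4, 15 for 4 against 2). Single positions were tested with edgeR 4.0.16 in R 4.3.3 on substituted reads with log coverage as offset, where 2 or more libraries held 10 or more such reads. DESeq2 1.42.0, limma 3.58.1 on log2(fraction + 1e-05), TMM scaling, other distances and left-out libraries were alternatives. The positions named were, per comparison, up to 5 rises and 5 falls past an adjusted p of 0.05 without overlap, the 5 highest by excess in each UNG genotype and the 5 highest in AID-/- cells. Python 3.11.15, numpy 2.4.6, scipy 1.17.1, pandas 2.3.3 and matplotlib 3.10.9 were used.

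On simulated counts with 20 changed positions per fold, edgeR recovered 85% of 2-fold, 75% of 0.5-fold and 50% of 1.5-fold changes for UNG-/- against UNG+/+ (511 positions, 3 false calls). The shares were 80%, 65% and 15% for UNG+/+ against AID-/- (514 positions, 4 false calls), and 80%, 15% and 0% for UNG-/- against AID-/- (513 positions, 0 false calls). Every other position, C:G included, was drawn with the same mean frequency in all genotypes, whereas many C:G positions differ in the data. The adjustment was therefore not eased as in the data, and these shares describe the simulated setting. Deviations from the group means of same-numbered UNG libraries at A:T positions correlated at 0.233, 0.109, 0.112 and 0.225 on the linear scale and between -0.138 and -0.000345 on the log2 scale. On the linear scale the best-correlated UNG-/- library had the same number for UNG+/+ replicate 4 only. Same-numbered libraries were thus not clearly pairs at these positions, and the numbers served as a block in an alternative only. Between libraries of a group chi-square per A:T position was 1.46 to 2.46, so none was a copy of another.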

Additional observations from a re-analysis of the deposited data

Results flagged for a closer look

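In 8 of 98 groups of 4 libraries examined, a library lay apart from the other 3 by Dixon's criterion, where chance gives about 1 in 20 for a single group. The groups share libraries and positions, so the count cannot be set against that rate. UNG+/+ replicate 2 was high in 6 of them. It gave 1.01 per 10000 at WA positions against 0.887 to 0.897 in the other UNG+/+ libraries, 0.802 against 0.739 to 0.745 at AA positions and 1.30 against 1.09 to 1.12 at TA positions. It also gave 0.228 against 0.172 to 0.181 for A to C, 3.07 against 1.74 to 1.91 at A178, and 6.27 against 4.95 to 5.05 at T255. UNG+/+ replicate 1 was low for near minus far, with 0.0508 against 0.160 to 0.175, and at A positions, with 0.903 against 1.01 to 1.02. Both libraries belong to the lower-quality pair, and the part of base quality in these values was not tested.

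The polymorphic A:T positions left out of every comparison carried a second base in 3 of the 4 UNG-/- libraries. At A376 the substituted share was 14.4%, 14.1% and 11.7% in UNG-/- replicates 1, 2 and 4, against 0.0251 to 0.0595% in UNG+/+ libraries. At A455 it was 3.50%, 3.55% and 1.97%, against 0.0152 to 0.0294%. At T486, 6 bp from T492, it was 43.6%, 44.4% and 41.9%, against 0.0953 to 0.248%.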

How the results depend on the processing

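No alternative brought a class comparison of A:T positions past an adjusted or exact p of 0.05. Those against AID-/- could not pass, since 4 libraries against 2 give an exact permutation p of at least 0.0667. Differences between genotypes that were small beside their errors changed sign under some alternatives, and the cause was not tested. Within quality pairs, the A:T mean of UNG+/+ against AID-/- turned to -0.0129 in the lower-quality libraries. In the higher-quality ones near minus far turned to 0.00808, WA near minus far to -0.00805, SA near minus far to 0.0318 and A minus T to 0.0110 for UNG+/+ against AID-/-, and SA near minus far to 0.00901 and A minus T to 0.00538 for UNG-/- against AID-/-. Within replicate numbers 3 and 4, SA near minus far turned to -0.0228 and A minus T to -0.00561 for UNG-/- against UNG+/+. With distance to WRCY motifs, near minus far turned to 0.0131 for UNG-/- against UNG+/+ and WA near minus far to -0.0222 for UNG+/+ against AID-/-, which a single division at 3 bp turned to -0.0283. Pooling reads over positions turned near minus far to 0.0179 and SA near minus far to 0.00653 for UNG+/+ against AID-/-, SA near minus far to -0.0225 for UNG-/- against UNG+/+, and A minus T to 0.00906 for UNG-/- against AID-/-. Without A:T positions within 5 bp or 10 bp of a polymorphic position, SA near minus far turned to -0.0172 and -0.0621 for UNG-/- against UNG+/+. A minus T for UNG-/- against AID-/- turned to 0.00841 without those within 10 bp, to 0.00792 without T492, to 0.00332 as a log2 ratio, and to 0.0626 with UNG-/- replicate 3 alone, which turned SA near minus far to 0.00837. The 10 bp, T492, replicate 3 and AID-/- quality alternatives were chosen after seeing the data.

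Leaving out 1 library at a time gave a range that crossed 0 for the A:T mean of UNG+/+ against AID-/- (-0.0100 to 0.0645), near minus far of the same pair (-0.0257 to 0.0159), WA near minus far of the same pair (-0.0135 to 0.0467), SA near minus far of UNG-/- against UNG+/+ (-0.0201 to 0.0612) and A minus T of UNG-/- against AID-/- (-0.0413 to 0.00229). Among types it crossed 0 between UNG-/- and UNG+/+ for A to G (-0.00927 to 0.0152), T to A (-0.00388 to 0.0198), T to C (-0.0224 to 0.0344) and T to G (-0.00821 to 0.0545). Against AID-/- it did so in UNG+/+ for A to C (-0.0136 to 0.0292), A to G (-0.0170 to 0.0219), A to T (-0.0179 to 0.0107) and T to G (-0.0308 to 0.110), and in UNG-/- for A to G (-0.0144 to 0.0245) and T to G (-0.00661 to 0.134). Among positions the log2 fold change against AID-/- crossed 0 in UNG+/+ for T229 (-0.46 to 0.026), A278 (-0.61 to 0.18) and T346 (-0.85 to 0.28), and in UNG-/- for T229 (-0.23 to 0.25), T255 (-0.13 to 0.12), A278 (-0.48 to 0.30) and T346 (-0.92 to 0.21), each at an end without one of the AID-/- libraries.

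Counts of A:T positions called moved with the method. TMM scaling used the substituted reads of all tested positions, C:G included, in place of coverage, which removes differences in total substitution load. It gave 10 (0 higher), 8 (2 higher) and 24 (1 higher) for UNG-/- against UNG+/+, UNG+/+ against AID-/- and UNG-/- against AID-/-. Of these, 0, 4 and 2 were among the edgeR calls with coverage as offset, so most were other positions called lower. DESeq2 gave 1, 2 and 4 and A:T positions alone 0, 2 and 1. limma gave 3 for UNG+/+ against AID-/-, and the replicate block gave 7 for UNG-/- against UNG+/+. No class comparison changed its call with the replicate block, where 4 pairs allow an exact p of at least 0.125. For UNG+/+ against AID-/- the count was 2 to 6 over left-out libraries, with 3, 3, 2 and 3 without UNG+/+ replicate 2, UNG+/+ replicate 4, AID-/- replicate 1 and AID-/- replicate 2. For UNG-/- against AID-/- it was 3 to 15, with 15, 14 and 3 without UNG+/+ replicate 3, UNG-/- replicate 2 and AID-/- replicate 2. Among single positions TMM turned A202 to -0.20 and T330 to -0.42 (log2, UNG-/- against AID-/-), and limma turned T516 to -0.31 (UNG+/+ against AID-/-). With a median of 19 to 45 substituted reads per A:T position and library, changes of 1.5-fold at single positions were often missed in simulation.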
